A study of Oryza sativa Japonica Group with 8 samples.

Results

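In cold-shocked rice seedlings, 89 gene IDs moved in opposite directions in the 2 genotypes: their transcripts were lower after cold shock in transgenic seedlings (T) and higher after cold shock in control seedlings (N). They were chosen from the counts themselves. Each count was divided by the total of its library and multiplied by 1000000 (CPM), the mean of the 2 libraries of a group was taken, 1 was added and the value was put on the log2 scale. An ID starting with Os was kept when cold shock (CS) minus room temperature (RT) was -0.7 or less in T and 0.7 or more in N, and 89 of 37849 such IDs met both conditions. The opposed changes are therefore what the members were chosen on, and they are given below as a description.

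The seedlings were 10 days old and only their aerial parts were taken. T seedlings were homozygous multigene lines of the japonica cultivar Taipei 309 that carry RD29A:AtDREB1a, the Arabidopsis DREB1a gene behind an Arabidopsis promoter that responds to cold, drought and salt, together with the marker genes NPTII, GUS, GFP and pporRFP, all placed by Cre-lox recombination at 1 locus of the founder line T5. N seedlings are labelled wild type (Taipei 309), while the series text gives T5, which carries the founder locus, as that wild type, and the sources also differ on which lines were pooled for T. The groups were T_CS and N_CS, kept on ice for 20 h, and T_RT and N_RT, kept at room temperature. Each group was 1 pool of RNA from 6 seedlings, from which 2 libraries were made, so SDs and adjusted p-values measure the spread between libraries of a pool and not between plants. The transgene itself was not analysed here, and the tissue was not checked against marker genes because the files give gene IDs without names.

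DREB1 proteins, also called CBF proteins, are transcription factors that bind the dehydration-responsive element in the promoters of cold-inducible genes, and in many plants their own genes are switched on within a short time of chilling. They are known mainly as activators. In bulk RNA counts, fewer cells of a type and less RNA per cell cannot be told apart. Of the 89 members, only Os08g0546800 has a name in the sources used here. It is OsHsfB2b, a heat-shock transcription factor of class B. Class B factors bind heat-shock elements but lack the activation domain of class A factors, and many of them act as repressors. The other 88 members are given by ID, and no role is assigned to them.

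The 8 libraries held between 18963211 and 24405824 counts. All 89 members passed the filter on low counts, which left 28218 of 38978 IDs. A level between 0.065 and 0.0748 CPM, depending on the group, stands for 3 counts in both libraries together. CPM is not corrected for transcript length, so levels are compared between libraries for the same ID and not between IDs. Many members were of low abundance, with a mean over the 4 groups under 5 CPM in 48 of them and under 10 CPM in 64, and the range ran from 0.753 to 2165 CPM. In T_CS, 19 and 21 members had fewer than 10 counts in replicates 1 and 2, against none in the T_RT and N_CS libraries and 6 and 9 members in the N_RT libraries.

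On the scale of the rule, cold shock changed the members in T by -3.85 to -0.72, with a median of -1.04, and in N by 0.70 to 2.21, with a median of 1.00. The fall in T was the larger change in 58 members and the rise in N in 31. This split can depend on the scaling, and it is given for total count scaling, the scaling of the rule, only. Against the trimmed-mean scaling of the tests, total count scaling shifted the median of all tested IDs by -0.115 in T_CS versus T_RT and by -0.11 in N_CS versus N_RT. The opposed change, defined as the smaller of the fall in T and the rise in N, had a median of 0.87. It reached 1 in 26 members, 1.5 in 5 and 2 in 1, and 27 members lay between 0.7 and 0.8. Just inside the rule were Os02g0258200 and Os06g0567900, each with an opposed change of 0.70, and just outside were Os05g0279850 and Os09g0351700, each with 0.69. Each condition alone was met by more IDs, 4465 for the fall in T and 569 for the rise in N, so that the members were 1.99% of the IDs with such a fall in T and 15.6% of those with such a rise in N.

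**Figure D1:**
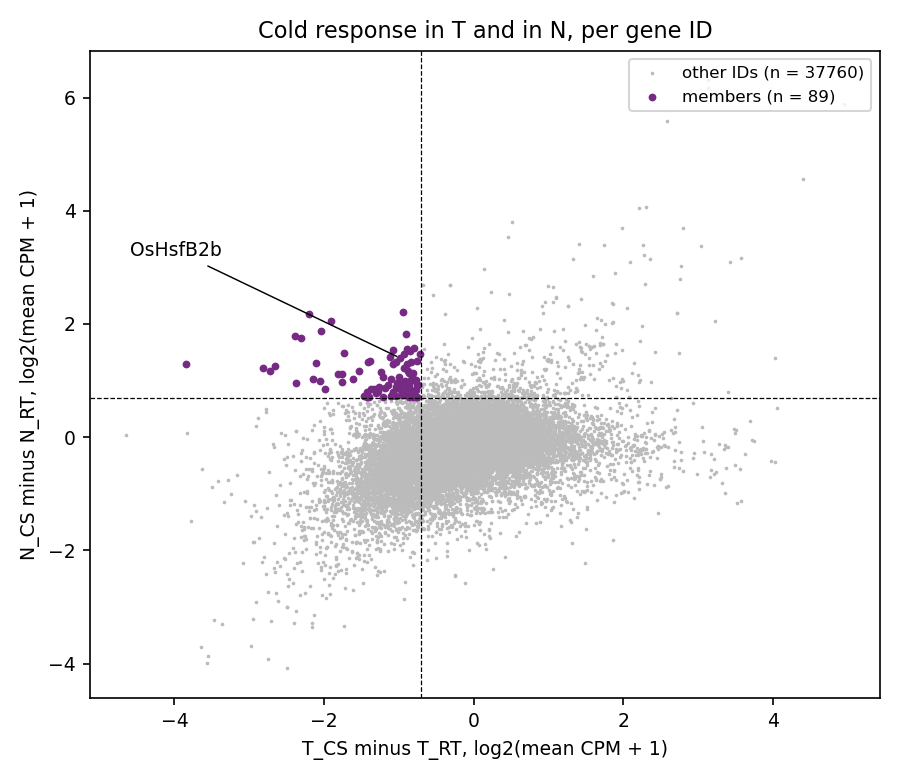
Cold response of each gene ID in T (x axis, T_CS minus T_RT) and in N (y axis, N_CS minus N_RT), both as differences of log2(mean CPM + 1). Purple points are the 89 members, which fill the upper left corner beyond the dashed lines at -0.7 and 0.7 because the rule put them there, and grey points are the other IDs.

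The largest opposed change was that of Os03g0161900, with 3.88 and 3.74 CPM in the 2 T_CS libraries, 22.2 and 20.2 CPM in T_RT, 52.6 and 50.5 CPM in N_CS and 10.4 and 10.9 CPM in N_RT. N_CS was highest, T_CS lowest, and no libraries of any 2 groups overlapped. Os05g0407100 had 0.142 and 0.58 CPM in T_CS, 4.27 and 3.90 CPM in T_RT, 13.1 and 11.8 CPM in N_CS and 1.97 and 2.49 CPM in N_RT. Os06g0728700 had 4.78 and 3.96 CPM in T_CS, 21.9 and 20.4 CPM in T_RT, 34.9 and 35.6 CPM in N_CS and 9.22 and 8.45 CPM in N_RT. Both followed the order of Os03g0161900, with N_CS above T_RT, T_RT above N_RT and N_RT above T_CS in every library. Os02g0758000 did so too, at 1.14 and 1.00 CPM in T_CS, 9.56 and 10.1 CPM in T_RT, 18.9 and 20.8 CPM in N_CS and 5.12 and 4.98 CPM in N_RT.

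Other strongly opposed members had a different order. Os12g0458100 had 0.0947 and 0.316 CPM in T_CS, 4.69 and 5.25 CPM in T_RT, 2.75 and 2.65 CPM in N_CS and 0.0819 and 0.104 CPM in N_RT. Os08g0167800 had 0.237 and 0.369 CPM in T_CS, 20.4 and 15.1 CPM in T_RT, 2.23 and 2.49 CPM in N_CS and 0.492 and 0.259 CPM in N_RT. In both IDs T_RT was the highest group, by a wide margin in Os08g0167800, and the libraries of T_CS and N_RT overlapped. Os01g0793300, with 0.473 and 0.633 CPM in T_CS, 3.08 and 3.04 CPM in T_RT, 2.23 and 2.09 CPM in N_CS and 0.164 and 0.311 CPM in N_RT, was likewise highest in T_RT but lowest in N_RT.

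OsHsfB2b (Os08g0546800) was close to the detection limit in T_CS, with 0.142 and 0 CPM, against 0.873 and 1.35 CPM in T_RT, 2.45 and 2.49 CPM in N_CS and 0.533 and 0.104 CPM in N_RT. It was highest in N_CS, and only the T_CS and N_RT libraries overlapped in level. The 3 counts of the T_CS group stood against 52 in T_RT, a ratio of T_RT to T_CS per total count of 15.1 with a 95% counting interval of 4.88 to 75.4, and against 105 in N_CS, a ratio of N_CS to T_CS of 33.0 with an interval of 11.0 to 163. These intervals cover counting error only. Os06g0253100 was still lower in T_CS, with 0.0473 and 0 CPM from 1 count, against 2.25 and 2.54 CPM in T_RT, 4.15 and 2.70 CPM in N_CS and 0.533 and 0.622 CPM in N_RT. For this ID the ratio to T_CS was 96.4 for T_RT (17.0 to 3843) and 139.5 for N_CS (24.7 to 5547), where the wide 95% intervals come from the single count.

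**Figure D2:**
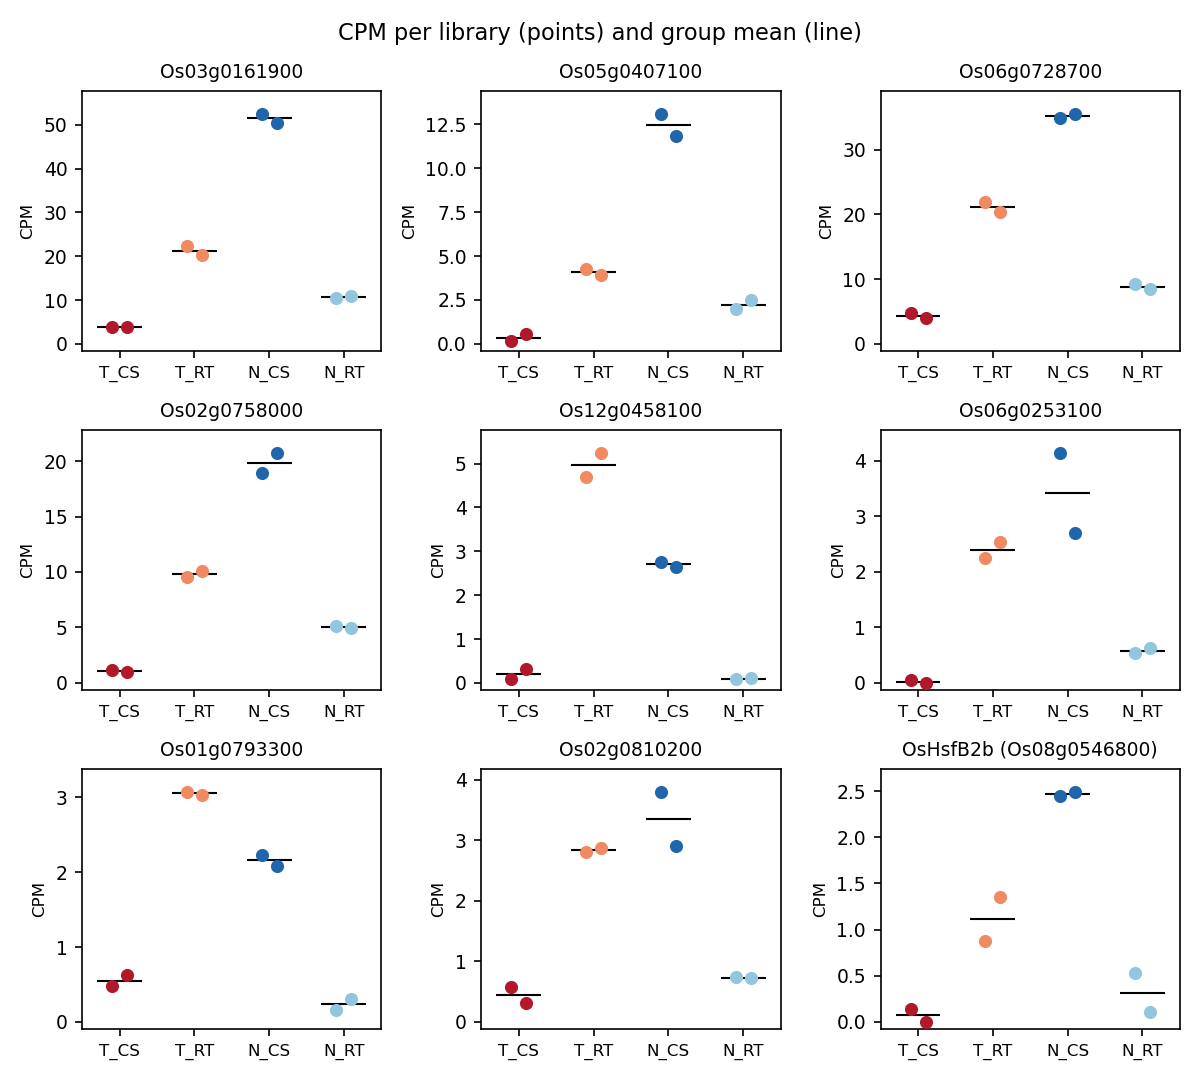
CPM in each library (points) and group mean (lines) of the 8 members with the largest opposed change and of OsHsfB2b, on linear axes of different height, with T_CS, T_RT, N_CS and N_RT from left to right. T_CS lies below T_RT and N_RT below N_CS in every panel, while the highest group is N_CS in most panels and T_RT for Os12g0458100 and Os01g0793300.

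Some of the members were abundant, and for these counting error is small. The rule fixed the direction of their changes too, so their values are a description. Os03g0592500, the most abundant member, had 1353 and 1356 CPM in T_CS, 2768 and 2799 CPM in T_RT, 2776 and 2861 CPM in N_CS and 1737 and 1672 CPM in N_RT. Os11g0242800 had 1041 and 1027 CPM in T_CS, 1738 and 1742 CPM in T_RT, 1803 and 1861 CPM in N_CS and 967 and 958 CPM in N_RT. In Os03g0592500 the T_RT and N_CS libraries overlapped, and in Os11g0242800 the T_CS and N_RT groups were close but did not overlap. Os08g0500700 differed more between the groups, with 23.1 and 21.4 CPM in T_CS, 122 and 116 CPM in T_RT, 176 and 167 CPM in N_CS and 84.3 and 90.3 CPM in N_RT. Os08g0203400 had 53.8 and 52.6 CPM in T_CS, 90.4 and 90.8 CPM in T_RT, 174 and 166 CPM in N_CS and 69.5 and 62.8 CPM in N_RT. No libraries of the 4 groups overlapped in either of these IDs, and N_CS was the highest group in both.

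Taken over the 89 members, the summed CPM was 2899 and 2887 in T_CS, 5767 and 5792 in T_RT, 6311 and 6402 in N_CS and 3490 and 3396 in N_RT, and these sums are dominated by the 2 most abundant IDs. The median of the group means over the members was 1.14 CPM in T_CS, 5.43 in T_RT, 6.27 in N_CS and 2.55 in N_RT. Cold-shocked transgenic seedlings were thus at the bottom and cold-shocked controls at the top by both measures. By member, N_CS was highest and T_CS lowest in 63, N_CS highest and N_RT lowest in 4, T_RT highest and T_CS lowest in 8, and T_RT highest and N_RT lowest in 14. T_RT and N_CS, the upper pair of groups, lay within 0.5 of each other on the log2(mean CPM + 1) scale in 48 members, with a median of T_RT minus N_CS of -0.37. T_CS and N_RT, the lower pair, lay within 0.5 in 52 members, and both T_CS libraries were below both N_RT libraries in 58.

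**Figure D3:**
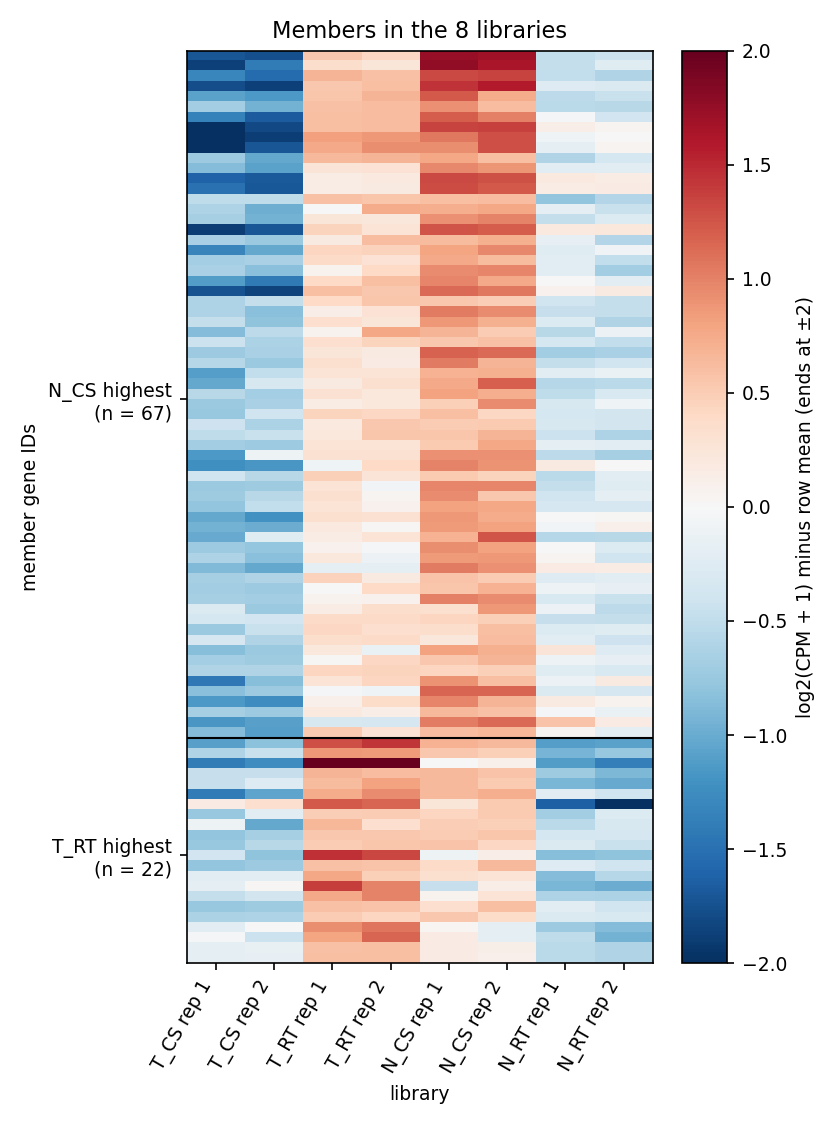
The 89 members (rows) in the 8 libraries (columns, T_CS, T_RT, N_CS and N_RT from left to right), as log2(CPM + 1) minus the mean of the row, with the colour scale ending at -2 and 2. The 67 members above the line were highest in N_CS and the 22 below it in T_RT, and rows within each block run from the largest opposed change to the smallest.

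Tests used edgeR's quasi-likelihood model over all genes with Benjamini-Hochberg adjustment, and a false discovery rate (FDR) of 0.01 or less counted as a change. In T_CS versus T_RT all 89 members fell, where 26.2% of all tested IDs fell, and in N_CS versus N_RT all 89 rose, where 19.7% rose. Falling in T and rising in N together was seen in 2.5% of tested IDs, or 705, of which the rule took 12.6%. The difference between the cold responses was more negative in T than in N for all 89, against 15.6% of tested IDs. Since the rule used these contrasts, the counts restate the choice. The fitted log2 fold change had a median of -1.61 in T_CS versus T_RT and of 1.49 in N_CS versus N_RT, against -0.01 and 0.01 over all tested IDs.

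After cold shock the members were lower in T than in N: in T_CS versus N_CS, 83 of 89 fell and 0 rose, where 20.9% of tested IDs fell and 21.4% rose. Among changes that passed the FDR threshold, the log2 fold change was -1 or less in 78 members, against 4.92% of tested IDs. It was -3 or less in 20 members. Its median was -2.01, against -0.05 over all tested IDs. Outside the 2 members with 1 to 3 counts in T_CS, it ran from -5.06 (SE 0.27) in Os05g0407100 to 0.19 (SE 0.27) in Os04g0572400. Os03g0161900 had a log2 fold change of -3.68 (SE 0.11, adjusted p = 2.29e-40 in edgeR) and Os08g0500700 of -2.87 (SE 0.06, adjusted p = 2.53e-51). T_CS and N_CS are both groups that the rule used, so this comparison does not stand apart from it. With total count scaling, the scaling of the rule, 41.1% of all calls in T_CS versus N_CS were higher (5183 higher and 7432 lower), against 50.7% with TMM, the trimmed-mean scaling used for the tests (6052 and 5885), while 85 members fell.

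The members also differed between the genotypes without cold. In T_RT versus N_RT, 69 of 89 rose and 2 fell, where 9.44% of tested IDs rose and 7.49% fell. The median log2 fold change was 1.08, against 0.00 over all tested IDs, and both N_RT libraries were below both T_RT libraries in 79 members. Here too the rule had a part, because an ID that is high in T_RT and low in N_RT meets it more easily. The opposite rule, a rise with cold of at least 0.7 in T and a fall of at least 0.7 in N, took 153 IDs. For these 153 IDs the room temperature comparison gave 18 higher and 44 lower in T, with a median of -0.16. They were chosen on the same libraries, so they are not a control for the part of the rule. With total count scaling in place of TMM, 1995 of the tested IDs rose and 3576 fell in T_RT versus N_RT, against 2665 and 2114, while 68 members rose and 2 fell. The count of members moved more with the test, and DESeq2 gave 50 higher and 1 lower in T.

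The largest differences at room temperature were in members with little transcript in N_RT. Os12g0458100 was higher in T_RT than in N_RT by a log2 fold change of 5.74 (SE 0.43, adjusted p = 4.06e-18 in edgeR) and Os08g0167800 by 5.56 (SE 0.24, adjusted p = 5.89e-30). Os12g0583300, with 0.615 and 0.211 CPM in T_CS, 4.82 and 4.35 CPM in T_RT, 0.962 and 1.32 CPM in N_CS and 0.164 and 0.207 CPM in N_RT, had a log2 fold change of 4.67 (SE 0.41) at room temperature. The N_RT libraries held 2 and 2 counts of Os12g0458100, 12 and 5 of Os08g0167800 and 4 and 4 of Os12g0583300. The sizes of these differences therefore rest on few counts. In all, the log2 fold change was 2 or more in 13 of the 69 members that rose and under 1 in 19. OsHsfB2b (Os08g0546800) was higher in T_RT by 1.78 (SE 0.50, adjusted p = 0.00515 in edgeR), a call that was lost with DESeq2 (adjusted p = 0.0316), without T_RT replicate 2 (0.129) and without N_RT replicate 2 (0.153). Its fold change rested on few counts and moved with single libraries, to 3.43 without N_RT replicate 1 and 1.14 without N_RT replicate 2, while DESeq2 gave 1.82.

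Only Os04g0200700 and Os09g0491756 were lower in T_RT than in N_RT. Os09g0491756 had 34.4 and 31.1 CPM in T_CS, 56.4 and 56.5 CPM in T_RT, 133 and 121 CPM in N_CS and 71.9 and 71.0 CPM in N_RT, and its log2 fold change at room temperature was -0.27 (SE 0.05, adjusted p = 5.17e-05 in edgeR). Os04g0200700 had 0.805 and 0.896 CPM in T_CS, 2.25 and 2.22 CPM in T_RT, 7.26 and 7.89 CPM in N_CS and 5.0 and 3.52 CPM in N_RT. Its log2 fold change was -0.88 (SE 0.22, adjusted p = 0.00112 in edgeR), and the call was lost with DESeq2 (adjusted p = 0.0186) and without T_RT replicate 1 (0.0132), T_RT replicate 2 (0.018) or N_RT replicate 1 (0.15). The other 18 members did not pass the test, and their log2 fold changes lay between 0.08 and 1.08.

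Of the 14 members that were highest in T_RT and lowest in N_RT, 8 fell in T_CS versus N_CS, as did all 63 with N_CS highest and T_CS lowest. The 6 members that did not pass the test after cold shock all belonged to these 14, an order defined by the same libraries. Os01g0597600 had 10.3 and 11.8 CPM in T_CS, 22.6 and 21.7 CPM in T_RT, 11.0 and 13.6 CPM in N_CS and 2.25 and 1.5 CPM in N_RT, so that the genotypes were far apart at room temperature, by a log2 fold change of 3.60 (SE 0.15), and overlapped after cold shock (-0.08, SE 0.12, adjusted p = 0.636 in edgeR). Os04g0572400 was similar, with 2.04 and 2.48 CPM in T_CS, 7.95 and 5.83 CPM in T_RT, 1.49 and 2.75 CPM in N_CS and 0.819 and 0.726 CPM in N_RT. The other 4 were Os06g0133500, Os12g0510750, Os03g0283200 and Os11g0702400, with log2 fold changes of 0.00, -0.25, -0.53 and -1.22 in T_CS versus N_CS, and they are named here after their values were seen. A value that misses the threshold does not show that the genotypes were alike, and the SE of this comparison was as large as 0.42 in Os11g0702400.

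**Figure D4:**
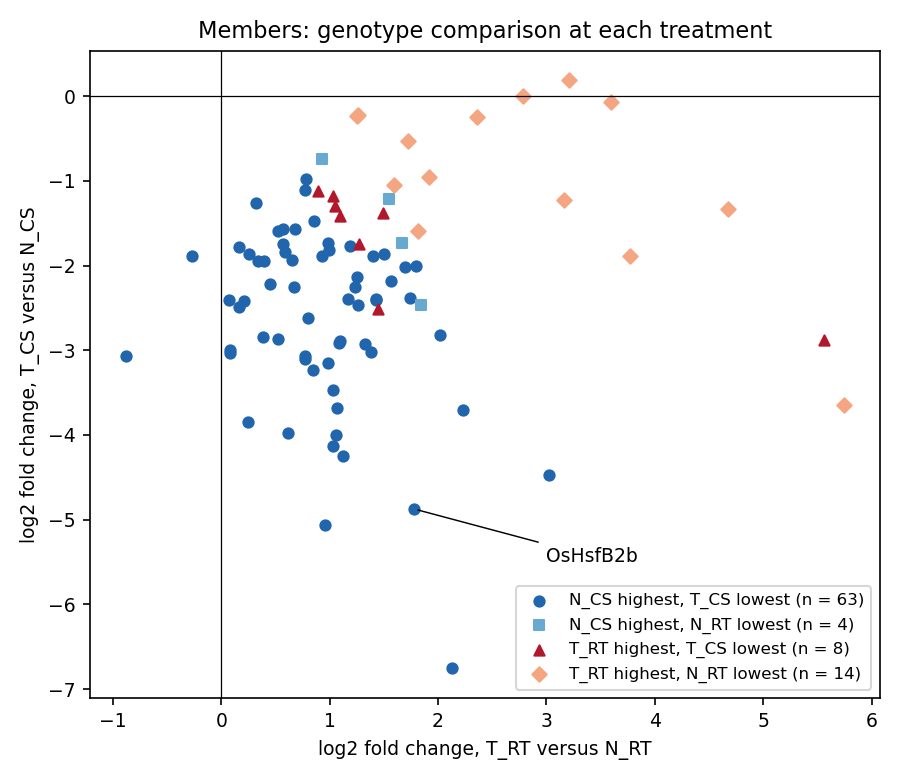
Fitted log2 fold change of each of the 89 members between the genotypes at room temperature (x axis, T_RT versus N_RT) and after cold shock (y axis, T_CS versus N_CS), with colour and symbol giving the highest and lowest group. Most points lie right of 0 and below 0, and those near 0 on the y axis belong to the 14 members that were highest in T_RT and lowest in N_RT, while the lowest point (Os06g0253100) and OsHsfB2b rest on 1 and 3 counts in T_CS.

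The choice of members depended on single libraries. When 1 library at a time was left out, the rule took between 86 and 100 IDs, and 56 of the 89 members were taken every time. With replicate 1 libraries alone it took 101 IDs, of which 53 were also taken on replicate 2 alone, or 52.5%. In replicate 2, which had no part in that choice, 99 of these 101 IDs changed in the same directions, and the median opposed change was 0.72 there, against 0.86 in replicate 1. The reverse gave 53 of 102 IDs taken again, or 52.0%, with 99 in the same directions and medians of 0.73 in replicate 1 and 0.87 in replicate 2. The replicates come from the same pool of RNA, so this measures how far the library decides and not how far another group of seedlings would show the same IDs.

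The IDs give the chromosome, which the rule did not use. Chromosome 3 held 16 members, or 18.0%, against 13.1% of tested IDs, and chromosome 6 held 14, or 15.7%, against 8.05%. Chromosome 8 held 10 members, or 11.2% against 6.59%, while chromosome 1 held 9, or 10.1% against 14.4%, chromosome 7 held 2, or 2.25% against 7.43%, and chromosome 10 held 1, or 1.12% against 5.17%. In ID order, 19 members formed 9 runs in which members followed each other directly, and with 1 ID kept per run 79 members remained, 11 of them on chromosome 6. Reads of overlapping or near-identical IDs could be counted for both, and the strand setting and the treatment of shared reads are not given in the sources used here.

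For that reason some neighbours are uncertain as separate members. Os06g0567900 and Os06g0567950 had counts within 25% of each other in all 8 libraries, for example 65.5 and 66.5 CPM in T_CS for Os06g0567900 and 64.6 and 66.4 CPM for Os06g0567950. Os06g0567900 had 113 and 114 CPM in T_RT, 83.4 and 80.2 CPM in N_CS and 51.2 and 48.7 CPM in N_RT. Os06g0567900 was highest in T_RT, and between the genotypes after cold shock its log2 fold change was -0.23 (SE 0.05). Os06g0160000 and Os06g0160001, named here after their values were seen, had the same count in 6 of the 8 libraries, with 5 and 4 counts in T_CS, 22 and 40 in T_RT and 21 and 15 in N_RT for each. In the N_CS libraries Os06g0160000 had 44 and 44 counts and Os06g0160001 had 43 and 43, and whether they are separate transcripts was not tested. Os09g0526600 and Os09g0526650 also followed each other in ID order, but their counts differed by more than 25% in every library. Os09g0526600 had 0.852 and 1.11 CPM in T_CS, 12.7 and 13.1 CPM in T_RT, 15.2 and 17.9 CPM in N_CS and 6.31 and 6.79 CPM in N_RT.

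Of the remaining IDs with a large opposed change, Os01g0840100 had 1.18 and 2.11 CPM in T_CS, 15.5 and 15.8 CPM in T_RT, 26.7 and 27.2 CPM in N_CS and 11.0 and 10.4 CPM in N_RT. Os05g0562300 had 1.09 and 0.686 CPM in T_CS, 7.12 and 7.22 CPM in T_RT, 11.3 and 9.72 CPM in N_CS and 4.18 and 3.11 CPM in N_RT. In both, the T_CS libraries were far below those of every other group, N_RT included. Os02g0810200 and Os06g0592500 had T_RT and N_CS at about the same level, with 2.80 and 2.87 CPM in T_RT and 3.80 and 2.90 CPM in N_CS for Os02g0810200, and 2.34 and 2.42 CPM in T_RT and 2.67 and 2.24 CPM in N_CS for Os06g0592500. Os05g0217800, more abundant than these, had 31.6 and 27.3 CPM in T_CS, 70.2 and 71.9 CPM in T_RT, 114 and 109 CPM in N_CS and 50 and 49.7 CPM in N_RT, and no libraries of its 4 groups overlapped.

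Names were at hand for 65 gene IDs, some of them picked with results of these same libraries known, and all 65 were found in the files. Of the 65, OsHsfB2b was the only member, and 7 met the opposite rule. Over all 37849 IDs starting with Os, 89 were members and 153 met the opposite rule. Because of how the names were picked, these counts say nothing about the members.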

How the data were processed

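RNA-seq counts of 8 libraries in 4 groups (T_CS, T_RT, N_CS and N_RT, 2 libraries each) were used. The authors trimmed reads with Trimmomatic, aligned them with STAR to IRGSP-1.0 and used featureCounts 1.6.4 for counts per gene ID, according to the submitters' processing notes. The deposited counts are whole numbers with totals that differ between libraries and were used as raw counts, although the study's methods speak of normalized values.

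Members were chosen on CPM by library total, as given at the start of the report. The members and lists were chosen with earlier results of these data known. The test was edgeR's quasi-likelihood test (version 4.0.16, R 4.3.3), with TMM scaling and 1 mean per group over all 8 libraries, on IDs that passed filterByExpr (minimum count 10, minimum total 15). The edgeR fit was tested on simulated counts with planted changes, and the rule was checked on made-up values. The other steps were not simulated. Alternatives were DESeq2 1.42.0, other scalings, filters, thresholds and pseudocounts, the replicate number as a block and leaving out each library. Keeping 1 ID per run of neighbours was chosen after seeing the data.

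Named are members that the study gives with an ID, the 15 with the largest opposed change, the 6 most abundant, the 2 on either side of the threshold, and up to 6 with the largest difference in each direction between T_RT and N_RT. The reference table used here (another assembly, ASM3414082v1) matched 1 ID of the files and 0 members. Lists by function, tissue markers and promoter motifs were therefore not run, and no sequence is printed. Libraries of a group differed by more than sampling noise (chi-square per degree of freedom between 1.71 and 2.39), so none was counted as a repeat.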

Additional observations from a re-analysis of the deposited data

Results flagged for a closer look

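In all 89 members the cold response differed between T and N by edgeR's test of the difference, and in every one both libraries of T_CS were below both of T_RT while both of N_CS were above both of N_RT. The rule chose the members for this difference, so it is a description of the choice, beside 15.6% of all tested IDs with a more negative response in T.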

How the results depend on the processing

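The number of IDs under the rule moved with its settings, to 139 with a pseudocount of 0.5, 230 with a threshold of 0.5 and 26 with a threshold of 1. It was 104 with TMM-scaled CPM, 81 of them members, and 86 to 100 when 1 library was left out. Among the 89 members, leaving out 1 library gave 84 to 87 that passed both cold comparisons, 80 to 83 that fell in T_CS versus N_CS, 52 to 73 that rose and 1 to 2 that fell in T_RT versus N_RT, and 89 for the difference of the cold responses. DESeq2 gave 82, 80, 50, 1 and 88 in the same order. Of the 71 calls in T_RT versus N_RT, 44 held in every alternative and 27 were lost in some. The replicate numbers did not pair the libraries (correlations of deviations between -0.0104 and 0.0113), and with the replicate block the counts were 89, 82, 69, 2 and 89.

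Among the named IDs, 120 results were recomputed 1680 times: 1652 kept direction and side of the threshold, 22 lost the call, 3 gained it and 3 changed sign. The sign changes were in T_CS versus N_CS, where Os01g0597600 ranged from -0.236 to 0.0738 when 1 library was left out (0.0173 without T_CS replicate 1, 0.0738 without N_CS replicate 2) and Os04g0572400 from -0.22 to 0.67 (-0.22 without N_CS replicate 1). The fall of Os12g0583300 in T_CS versus N_CS (-1.33, adjusted p = 0.00989 in edgeR) was lost in 9 of 14 alternatives. DESeq2, RLE size factors, the block and leaving out a T_RT or N_RT library gave -1.34 to -1.30, whereas it was -2.32 without T_CS replicate 1, -0.79 without T_CS replicate 2, -1.57 without N_CS replicate 1 and -1.10 without N_CS replicate 2. The cause was not tested. Total count scaling shifted the median of all tested IDs by -0.115 in T_CS versus T_RT and by -0.11 in N_CS versus N_RT, and lowered the share of higher calls to 39.4% in T_CS versus T_RT, against 50% with TMM, and to 32.9% in N_CS versus N_RT, against 48.3%. No member changed direction in either. Alternatives for the functional lists and the promoter motifs were not run. Low counts in T_CS limit the members under 5 CPM most.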
